A study of Mus musculus with 112 samples.

Results

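The Period genes Per1, Per2 and Per3 and the cryptochrome genes Cry1 and Cry2 were followed in cortex samples from male mice that ate either a calorie restricted (CR) diet or a control diet. They were taken by name, as the probe sets whose platform annotation gave exactly 1 of these 5 symbols, and made up 5 of the 19938 genes measured, each with 1 probe set. There were 112 arrays, 1 per mouse, and 8 mice in each of 14 groups: each of the strains Balbc/J, DBA/2J, C57BL6/J, CBA/J, 129S1/SvImJ, C3H/HeJ and B6C3F1/J gave a CR group and a control group, all from cerebral cortex. B6C3F1/J is the first generation hybrid of C57BL6/J and C3H/HeJ, and the other strains are inbred. The mice, caged singly from their arrival at an age of 6 weeks, first ate 84 kcal of a purified diet per week. They were assigned at 8 weeks to the CR or the control diet and were sampled at 22 weeks. Per the study's methods, food was not reduced by the same step in every strain: Balbc/J mice received more food on both diets, and 129S1/SvImJ and C57BL6/J mice on CR had their allotment lowered a further time, so that the depth of restriction and the strain cannot be told apart. Food was given on Mondays, Wednesdays and Fridays, and the mice of both diets were fasted overnight before sampling, per the same methods. The time of day at which each mouse was sampled is not given in the sources used here.

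In the mammalian circadian clock, the activators CLOCK and BMAL1 (BMAL1 is the product of Arntl) bind E-box sequences and switch on the Per and Cry genes, whose proteins assemble, enter the nucleus and repress those activators until they are degraded. The loop runs in cells of most tissues, the cortex included, so that the level of each transcript depends on the time of day. PER1 and PER2 act in the repressor complex and their transcripts can also be induced quickly by light, neuronal activity or glucocorticoids, PER3 is a paralog with a smaller part in the core loop, and CRY1 and CRY2 are the main repressors of the activators.

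Because the clock factors act through a few short promoter sequences, the 250 bases before the annotated transcription start are shown for the 4 members with a window in the RefSeq table used here (mouse build GRCm38.p6, 5 windows, Per1 having 2). Capitals mark matches on either strand to the E-box CACGTG, the E'-box CACGTT, which reads AACGTG when the opposite strand is printed, the D-box TTATGNAA bound by the DBP, TEF and HLF family, and the core TGACGT of the cAMP response element bound by CREB.
Cry1, chr10:85185055-85185304, minus strand: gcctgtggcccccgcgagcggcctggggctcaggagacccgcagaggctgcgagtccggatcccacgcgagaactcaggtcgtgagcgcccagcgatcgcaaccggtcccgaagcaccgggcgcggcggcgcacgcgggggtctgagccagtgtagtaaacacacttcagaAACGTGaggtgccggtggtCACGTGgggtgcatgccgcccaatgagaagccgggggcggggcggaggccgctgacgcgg
Cry2, chr2:92434070-92434319, minus strand: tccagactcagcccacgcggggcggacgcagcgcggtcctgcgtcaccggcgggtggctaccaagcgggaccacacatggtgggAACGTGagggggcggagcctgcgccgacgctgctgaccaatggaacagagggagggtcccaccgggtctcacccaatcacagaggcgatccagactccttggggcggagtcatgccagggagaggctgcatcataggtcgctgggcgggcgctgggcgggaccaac
Per1, start 1, chr11:69098699-69098948, plus strand: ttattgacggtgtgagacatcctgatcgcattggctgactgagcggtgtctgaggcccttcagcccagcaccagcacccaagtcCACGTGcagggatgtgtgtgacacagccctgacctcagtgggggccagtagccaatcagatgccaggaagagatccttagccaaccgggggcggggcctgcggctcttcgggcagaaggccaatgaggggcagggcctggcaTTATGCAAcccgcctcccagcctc
Per1, start 2, chr11:69099902-69100151, plus strand: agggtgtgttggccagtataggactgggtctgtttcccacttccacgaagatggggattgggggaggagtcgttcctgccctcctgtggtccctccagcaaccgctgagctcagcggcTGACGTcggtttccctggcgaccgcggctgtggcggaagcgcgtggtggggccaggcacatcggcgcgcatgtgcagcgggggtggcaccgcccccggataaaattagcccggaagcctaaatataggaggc
Per3, chr4:151044666-151044915, minus strand: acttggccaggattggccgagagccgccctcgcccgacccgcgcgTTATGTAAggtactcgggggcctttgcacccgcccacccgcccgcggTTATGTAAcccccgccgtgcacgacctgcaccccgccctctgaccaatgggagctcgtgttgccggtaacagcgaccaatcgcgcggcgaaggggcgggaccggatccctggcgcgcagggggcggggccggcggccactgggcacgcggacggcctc
The Cry1 window held an E-box 60 bases and an E'-box 79 bases before the start, and the Cry2 window an E'-box 166 bases before it. The first Per1 window held an E-box at 166 and a D-box at 24 bases, the second a cAMP response element core at 132 bases, and the Per3 window had a pair of D-boxes, at 205 and 158 bases. Over the 32851 windows of the table, shortened to the same length, 6.02% held an E-box, 3.85% an E'-box, 3.07% a D-box and 6.47% a cAMP response element core, with both strands searched. Such a match describes letters in the sequence and is not a measured binding site.

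The arrays themselves were close in scale, with a median log2 signal between 7.14 and 7.26. Every one of the 112 arrays lay nearest to the mean of its labelled strain over 200 genes. These genes were chosen on these arrays as those differing most between the labelled strains on the control diet. The choice by label favoured such a match in advance, so it is a weak check of the labels. Cerebellar markers were more than 1 log2 unit above their group on 4 arrays, namely CBA/J CR replicate 6 (1.27 log2 units over the list of 12 markers) and, on the control diet, replicate 6 of C57BL6/J (4.35) and replicate 8 of both B6C3F1/J (4.21) and DBA/2J (1.52). Gabra6, a receptor subunit of cerebellar granule cells, spanned 5.11 to 8.53 in CR mice and 5.12 to 12.3 in control mice, and Tbr1, a marker of excitatory cortical neurons, spanned 9.23 to 10.3 in CR mice and 5.56 to 10.2 in control mice. The main comparisons are therefore given with and without these arrays where a value moved. Group levels, pairs of strains and list medians by strain are given on all arrays. The probe sets were not examined for sequence differences between strains.

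Across the 7 strains, 3 of the 5 members were higher in CR mice than in control mice, and the other 2 were not called (limma, mean of the within-strain differences, adjusted p under 0.05 over all genes). Of all genes, 2.34% were called in this comparison, 1.17% higher and 1.17% lower. Per2 averaged 9.15 in CR mice and 8.94 in control mice on the log2 scale, a rise of 15.7% (95% interval 10.9 to 20.7%, adjusted p = 3.66e-06), which had rank 3 among the 19938 genes by p. Per3 averaged 8.90 in CR mice and 8.78 in control mice, a rise of 9.01% (6.14 to 11.96%, adjusted p = 2.18e-05), with rank 4. Cry1 averaged 7.84 in CR mice and 7.74 in control mice, a rise of 7.56% (3.92 to 11.3%, adjusted p = 0.00820). In bulk cortex, a change in the number of cells that express a gene and a change in its RNA per cell cannot be told apart. Per1, in contrast, averaged 9.71 in CR mice and 9.72 in control mice (adjusted p = 0.893), and the interval of its difference, from -5.84 to 3.66%, lay below that of Per2. Cry2 averaged 9.71 in CR mice and 9.70 in control mice (adjusted p = 0.818, interval -1.61 to 3.70%). Counted by mouse, 42, 46 and 45 of the 56 CR mice lay above the median of their own strain's controls for Per2, Per3 and Cry1, against 27 for Per1 and 28 for Cry2.

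The differences of CR response among the members were tested directly, as the CR minus control difference of 1 member less that of another, with diet permuted within strain 100000 times (two-sided, 10 pairs, Benjamini-Hochberg over the pairs). Of the 10 pairs, 8 differed at an adjusted p under 0.05, and the same 8 did so without the 4 arrays named above. Per2 responded more than Per3 by 0.09 log2 units (95% interval 0.032 to 0.140, adjusted p = 0.00708), more than Cry1 by 0.11 (0.037 to 0.174, adjusted p = 0.00720) and more than Cry2 by 0.20 (0.143 to 0.250, adjusted p = 3.33e-05, from the smallest p that the permutations can give, 1e-05). Within the cryptochromes, Cry1 responded more than Cry2 by 0.09 (0.027 to 0.154, adjusted p = 0.00708), and within the Period genes the response of Per1 minus that of Per2 was -0.23 (-0.292 to -0.164, permutation adjusted p = 3.33e-05) and that of Per1 minus Per3 was -0.14 (-0.213 to -0.071, adjusted p = 0.0004). Not separated were Per3 and Cry1, with a difference of 0.02 (-0.038 to 0.076, permutation adjusted p = 0.518), and Per1 and Cry2, with -0.03 (-0.087 to 0.023, permutation adjusted p = 0.307).

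**Figure D1:**
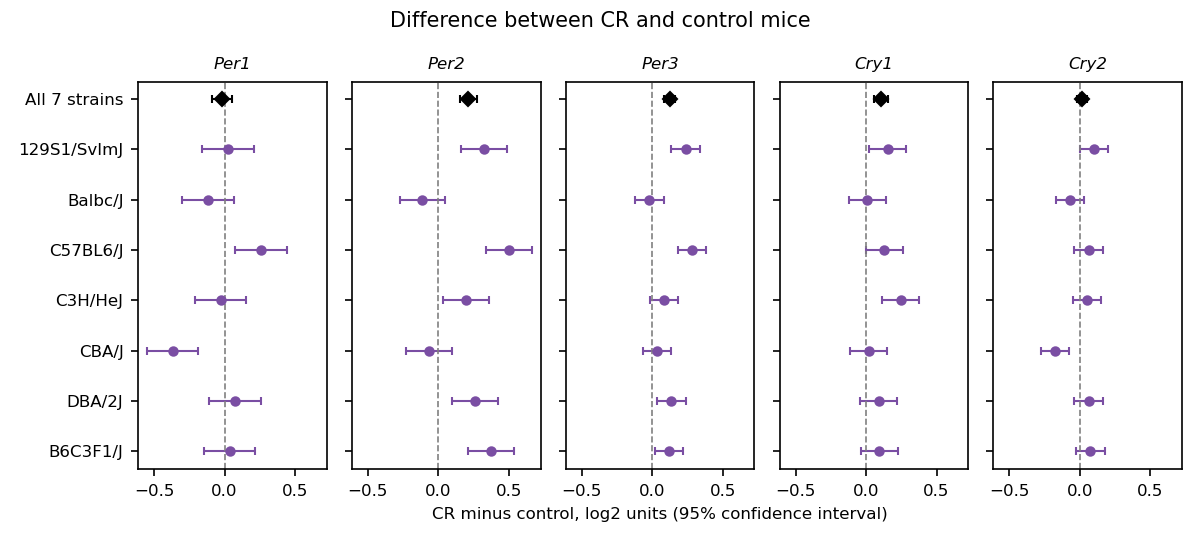
CR minus control difference in log2 units (x axis) for each member, for the mean of the 7 strains (black diamonds) and for each strain (purple circles), with 95% confidence intervals from limma. Per2 lies at 0.50 in C57BL6/J and at -0.11 in Balbc/J, and the means of Per1 and Cry2 over strains lie at -0.02 and 0.01.

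By strain, the differences of Per2 lay between -0.11 and 0.50. In C57BL6/J its lowest, median and highest log2 signals were 9.02, 9.13 and 9.21 in CR mice, against 8.36, 8.61 and 8.88 in control mice, with no overlap, a difference of 0.50 ± 0.081 (SE) or 41.7% (limma, adjusted p = 0.000263). In B6C3F1/J, the offspring of a C57BL6/J parent, they were 9.10, 9.21 and 9.38 in CR mice, against 8.64, 8.84 and 9.08 in control mice, a difference of 0.37 ± 0.081. All 8 CR mice of the hybrid thus lay above all 8 controls, yet the adjusted p over all genes was 0.231 in this strain. In 129S1/SvImJ the signals were 8.83, 8.97 and 9.15 in CR mice, against 8.37, 8.68 and 8.88 in control mice, a difference of 0.32 ± 0.081 (limma, adjusted p = 0.141) with 7 CR mice above the highest control. DBA/2J mice had 9.06, 9.17 and 9.39 on CR, against 8.40, 9.005 and 9.31 on the control diet, a difference of 0.26 with an SD of 0.114 on CR and of 0.345 on the control diet, the widest of the 14 groups. Every DBA/2J mouse on CR exceeded the control median. C3H/HeJ mice had 8.91, 9.25 and 9.33 on CR, against 8.50, 9.10 and 9.16 on the control diet, a difference of 0.20. The remaining strains ran the other way without passing the test: CBA/J mice had 8.90, 9.16 and 9.26 on CR, against 8.98, 9.20 and 9.37 on the control diet, and Balbc/J mice 8.99, 9.18 and 9.42 on CR, against 9.13, 9.31 and 9.52 on the control diet (limma, adjusted p = 0.983 and 0.900). Within single strains 0.1% of all genes were called in CBA/J, 0.00502% in 129S1/SvImJ and 0% in the 4 strains other than these and C57BL6/J. In C57BL6/J, 0.0853% of all genes were called at an adjusted p under 0.05 and 0.105% had no overlap between diets, and in B6C3F1/J 0.015% had none. The t-test of the study's methods, run within each strain on linear or log2 values and adjusted over all genes, called 0 members. It called 0 of all genes in every strain but CBA/J, with 17 there on linear and 19 on log2 values, so this count cannot set the members apart. At the study's own threshold, an unadjusted p under 0.01, it named Per2 and Per3 in 129S1/SvImJ, C57BL6/J and B6C3F1/J. On linear values 1.75, 2.01 and 0.582% of all genes passed in these strains.

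The response of Per2 to CR differed between strains in a test of the interaction itself (limma, moderated F = 7.78, adjusted p = 0.0131), as did that of 8 genes in all, or 0.0401% of those tested. This test cannot tell strain from the depth of food restriction, which differed between strains. Among the other members, the adjusted p of the interaction was 0.263 for Per1, 0.271 for Per3, 0.988 for Cry1 and 0.411 for Cry2. When the 21 pairs of strains were set against each other, the Per2 difference in C57BL6/J exceeded that in CBA/J by 0.57 log2 units (limma, adjusted p = 0.0102), and that in Balbc/J less that in C57BL6/J was -0.62 (limma, adjusted p = 0.0101). For Per1, C57BL6/J exceeded CBA/J by 0.63 (limma, adjusted p = 0.0149). Those 2 pairs were called for Per2, that 1 pair for Per1 and none for Per3, Cry1 or Cry2, where 9, 2 and 7 of the 21 pairs had an unadjusted p under 0.05 and 0.00836% of all gene and pair combinations were called. The call of the Per2 interaction was lost in 4 of the 8 fits that left out 1 replicate number of every group, numbers 3, 5, 6 and 7 (limma, adjusted p 0.0811 to 0.182), and kept without the single array that moved it most, Balbc/J control replicate 3 (limma, adjusted p = 0.0349).

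Per3 likewise differed most in C57BL6/J. In C57BL6/J its lowest, median and highest signals were 8.74, 8.86 and 8.91 in CR mice, against 8.34, 8.60 and 8.78 in control mice, a difference of 0.28 ± 0.051 or 21.5% (limma, adjusted p = 0.00306), a call that was lost without replicate number 1 (0.25, adjusted p = 0.0685). In 129S1/SvImJ they were 8.90, 9.05 and 9.18 in CR mice, against 8.62, 8.82 and 8.94 in control mice, a difference of 0.24 ± 0.051 (limma, adjusted p = 0.0847, 0.0400 without the 4 cerebellum-rich arrays, and 0.0319 when mice were blocked by replicate number). In both strains all 8 CR mice lay above the control median. Elsewhere the difference was 0.14 in DBA/2J, 0.12 in B6C3F1/J, 0.08 in C3H/HeJ, 0.03 in CBA/J and -0.02 in Balbc/J, none of them called. DBA/2J mice on CR were the tightest group for Per3, between 8.92 and 9.05, against 8.59 to 9.02 on the control diet.

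Cry1 was measured at a lower signal than the other members and differed in the same direction in all 7 strains, which 2% of all genes did in that direction, but in 6 of 7 without the 4 arrays, CBA/J then being at -0.000785. C3H/HeJ gave the largest difference: the lowest, median and highest signals were 7.88, 7.95 and 8.04 in CR mice, against 7.61, 7.68 and 7.83 in control mice, so that the groups did not overlap, as for 0.015% of genes in this strain. That difference of 0.24 ± 0.066 had a limma adjusted p of 0.934 over all genes. In 129S1/SvImJ the signals were 7.33, 7.64 and 7.78 in CR mice, against 7.39, 7.43 and 7.63 in control mice, a difference of 0.15. In C57BL6/J they were 7.84, 7.95 and 8.05 in CR mice, against 7.64, 7.77 and 8.26 in control mice, where the highest control was the array with the strongest cerebellar markers. All 8 CR mice of that strain lay above the control median, as did all 8 of B6C3F1/J, where the highest control, at 8.44, was the other array with a deviation over 4 log2 units. Those arrays read 0.50 and 0.78 log2 units above the rest of their groups for Cry1. Without the 4 arrays the Cry1 difference was 0.19 in both strains and 0.12 over the 7 strains (limma, adjusted p = 1.89e-05), against 0.11 with them. In Balbc/J, Cry1 on CR held within 7.87 to 7.97 (SD 0.0285), against 7.67 to 8.08 on the control diet (SD 0.128), with almost the same means, 7.93 and 7.92. The Cry1 call rested in part on single strains: without C3H/HeJ the difference was 0.08 (limma, adjusted p = 0.108), and without 129S1/SvImJ 0.10 (limma, adjusted p = 0.0590).

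**Figure D2:**
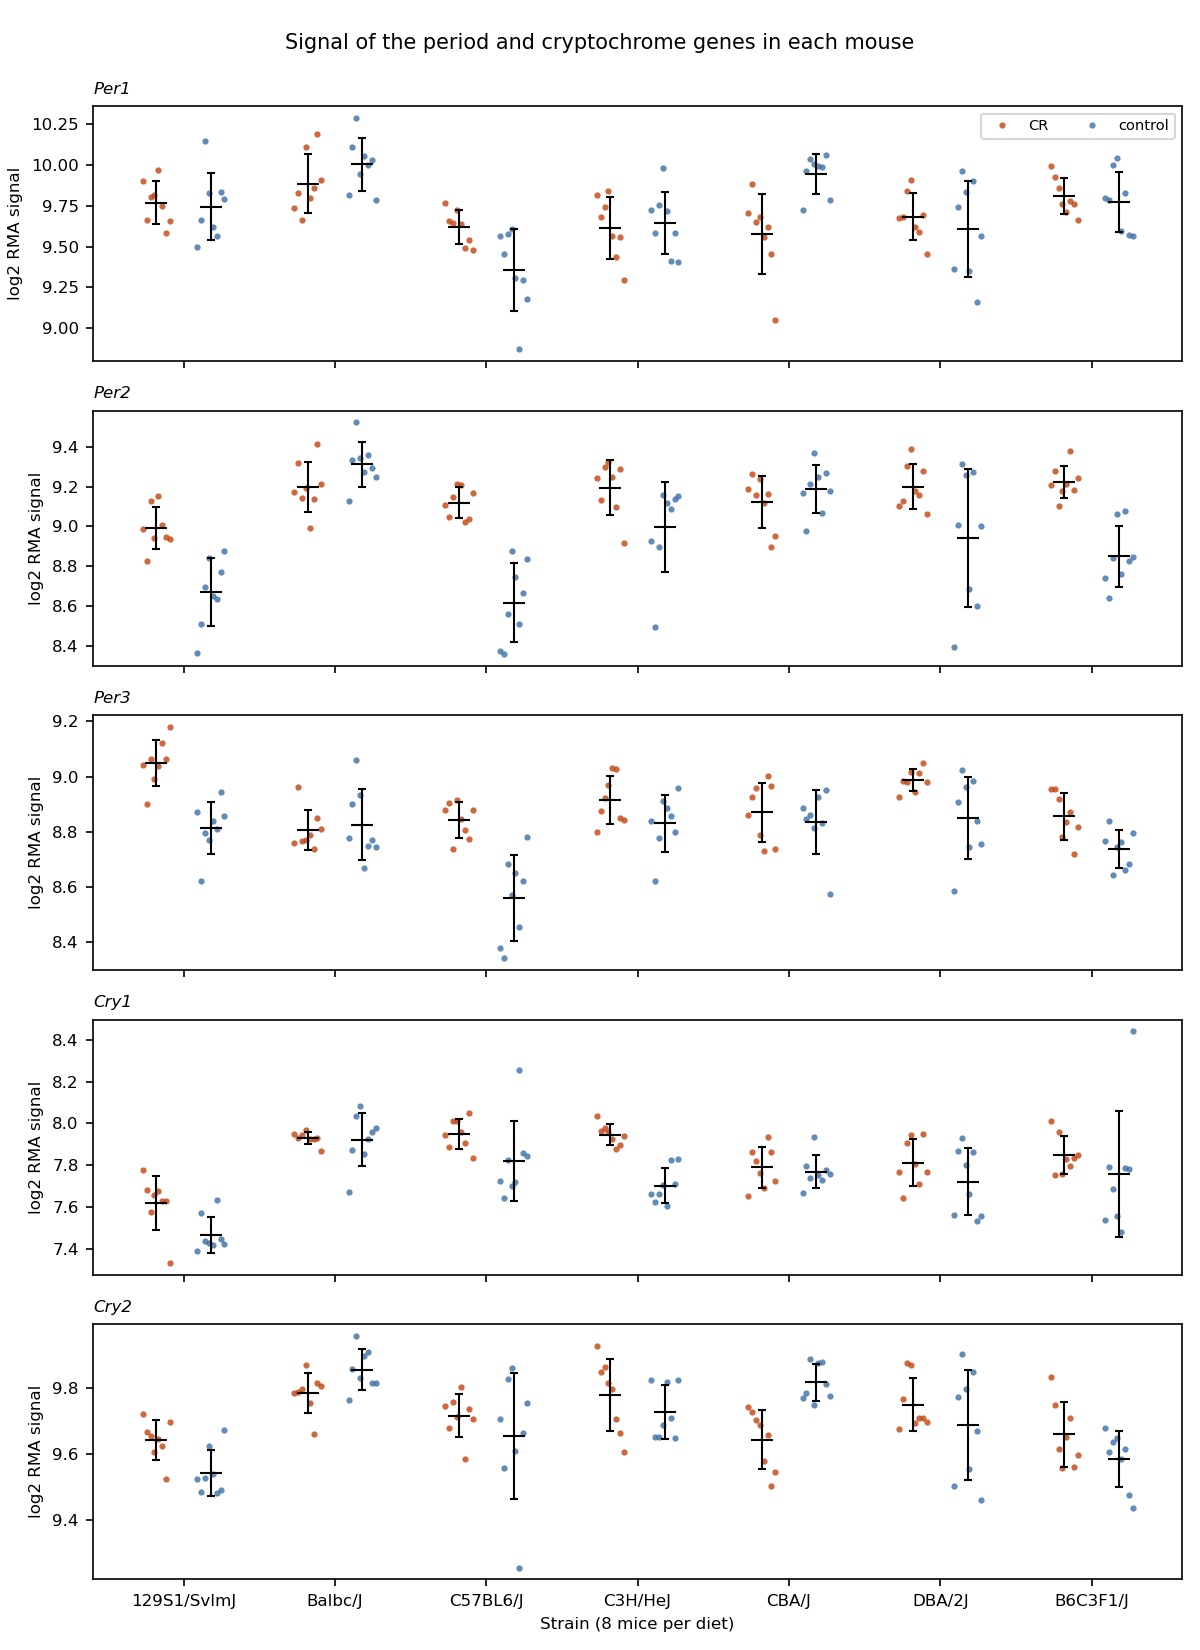
Log2 RMA signal (y axis) of each member in every mouse, by strain (x axis), CR left (red) and control right (blue), with the mean and SD of each group of 8 mice in black. Per2 means span 0.23 log2 units over the strains on CR and 0.70 on the control diet.

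For Per1, strains differed in sign. In CBA/J its lowest, median and highest signals were 9.05, 9.64 and 9.88 in CR mice, against 9.72, 9.99 and 10.1 in control mice, a difference of -0.37 ± 0.093 (limma, adjusted p = 0.0763), and none of the 8 CR mice reached the control median. Without the 4 arrays high in cerebellar markers it was -0.38 (limma, adjusted p = 0.0493), a call that was also made with the replicate number as a block (adjusted p = 0.0147). Without C57BL6/J control replicate 6 alone the limma adjusted p was 0.0448, while the difference in CBA/J stayed at -0.37. Leaving out an array of another strain moves only the spread shared by all groups and the adjustment over genes, so it adds nothing about CBA/J mice. In C57BL6/J the signals were 9.48, 9.64 and 9.77 in CR mice, against 8.87, 9.38 and 9.61 in control mice, a difference of 0.26 (limma, adjusted p = 0.275), or 0.19 without the lowest control, which was replicate 6. The other 5 strains lay between -0.12 and 0.07. Beside these values, the 10 activity-induced genes on the list (immediate early genes such as Arc, Fos and Egr1) had a median CR difference of -0.55 in CBA/J, with 0 of 10 above 0, and of 0.42 in C57BL6/J, with 10 of 10 above 0. In Balbc/J and DBA/2J, where Per1 differed by -0.12 and 0.07, the medians of that list were -0.14 and 0.17, with 0 and 10 of its 10 genes above 0, and in B6C3F1/J, where Per1 differed by 0.03, the median was 0.16, with 7 of 10. The signs were opposite in 129S1/SvImJ, with 0.02 for Per1 and a median of -0.02 (3 of 10 above 0), and in C3H/HeJ, with -0.03 for Per1 and a median of 0.03 (6 of 10). None of these 10 genes was called over the 7 strains, where their median was 0.04 on all arrays and -0.04 without the 4 high in cerebellar markers. The medians and counts by strain are given on all arrays only. They thus include those arrays, of which the strongest are controls of C57BL6/J and B6C3F1/J. The share of all genes above 0 in each strain is not given beside them.

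Cry2 likewise differed most in CBA/J, at 9.50, 9.67 and 9.74 in CR mice, against 9.75, 9.80 and 9.89 in control mice, a difference of -0.17 ± 0.051 without overlap (limma, adjusted p = 0.142). In that strain 0.236% of all genes had no overlap. In 129S1/SvImJ the difference was 0.10, with 9.52, 9.65 and 9.72 in CR mice, against 9.48, 9.52 and 9.67 in control mice. The other strains lay between -0.07 and 0.07, and no strain was called for Cry2. Without the 4 arrays high in cerebellar markers, Cry2 moved from 0.06 to 0.0043 in C57BL6/J, from 0.06 to 0.03 in DBA/2J and from 0.07 to 0.05 in B6C3F1/J.

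Levels of the members also differed among strains. On the control diet all 5 differed among strains (limma, moderated F, adjusted p from 5.83e-14 for Per2 to 1.66e-06 for Per3), as did 65.4% of all genes. On CR, 4 of the 5 did (adjusted p of 0.0162 for Per1, 0.000132 for Per3, 3.90e-05 for Cry1 and 0.0167 for Cry2), as did 56.8% of all genes, and Per2 was not called (limma, adjusted p = 0.117). The Per2 means of the 7 strains spanned 0.23 log2 units on CR and 0.70 on the control diet, with 2 of 21 strain pairs called on CR and 14 of 21 on the control diet. For Per1 the spans were 0.31 on CR and 0.64 on the control diet with 3 and 11 pairs called, and for Cry2 0.14 and 0.31 with 3 and 9 pairs. Per3 and Cry1 narrowed less, spanning 0.24 and 0.33 on CR against 0.29 and 0.45 on the control diet, with 7 and 5 pairs called on CR against 6 and 8 on the control diet. Over all genes and pairs, 20.2% were called on CR and 23.7% on the control diet, and the median gene spanned 0.91 times as much on CR as on the control diet. The ratio was 0.33 for Per2, a value below which 0.557% of genes lay, 0.45 for Cry2 and 0.48 for Per1.

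On CR, the order of Per2 means was B6C3F1/J at 9.22, DBA/2J and Balbc/J at 9.20, C3H/HeJ at 9.19, CBA/J and C57BL6/J at 9.12 and 129S1/SvImJ at 8.99, and no neighbours in it were called different. On the control diet the order was Balbc/J at 9.31, CBA/J at 9.19, C3H/HeJ at 8.997, DBA/2J at 8.94, B6C3F1/J at 8.85, 129S1/SvImJ at 8.67 and C57BL6/J at 8.62, again with no called neighbours although 14 of the 21 pairs were called. The strains with the highest control levels, Balbc/J and CBA/J, were thus those with a negative CR difference, a relation in which the same control means enter both quantities. Control C57BL6/J mice were last for Per1, at 9.36, below DBA/2J at 9.61 (limma, adjusted p = 0.0277), and last for Per3, at 8.56, below B6C3F1/J at 8.74 (limma, adjusted p = 0.00561). The C57BL6/J control group includes replicate 6, high in cerebellar markers, which read -0.56 log2 units from the rest of its group for Per1. These pairs are given on all arrays only. Control 129S1/SvImJ mice were last for Cry1, at 7.47, below C3H/HeJ at 7.70 (limma, adjusted p = 0.00349), and last for Cry2, at 9.54, where the next strain, B6C3F1/J at 9.59, was not called different. On CR, 129S1/SvImJ was last for Per2, Cry1 and Cry2 and first for Per3, at 9.05. Control Balbc/J mice led for Per1, for Cry1, at 7.92, and for Cry2, at 9.86.

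For Per2 and Per3, mice of 1 group also lay closer together on CR. The SD within groups, over the arrays other than those 4, was 0.114 log2 units on CR and 0.209 on the control diet for Per2, and 0.078 on CR and 0.121 on the control diet for Per3. The ratio of these SDs, 0.54 for Per2 and 0.64 for Per3, compares with 0.97 for the median gene, and 0.0301% and 0.502% of all genes had a smaller ratio. The SD was smaller on CR in 5 of 7 strains for Per2 and in 6 of 7 for Per3. DBA/2J controls weighed on this: without that strain the ratio was 0.66 for Per2 and 0.72 for Per3, with 1.16% and 3.48% of genes below. For Per1, Cry1 and Cry2 the ratios were 0.84, 0.79 and 0.93. These ratios were looked at after the values were seen and carry no test.

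The hybrid B6C3F1/J was compared with the mean of its parental strains. Per1 in control mice stood 0.27 ± 0.080 log2 units above the mean of C57BL6/J and C3H/HeJ (limma, adjusted p = 0.0110), where 16.2% of genes were called, and in CR mice 0.19 ± 0.080 above it (limma, adjusted p = 0.0874), where 18% were called. Cry2 differed from the parental mean by -0.09 in CR mice and by -0.11 in control mice (limma, adjusted p = 0.163 and 0.0822). Per2, Per3 and Cry1 differed from it by 0.07, -0.02 and -0.10 in CR mice and by 0.04, 0.04 and -0.01 in control mice, none called. These values are on all arrays, and the arrays strongest in cerebellar markers are controls of C57BL6/J and B6C3F1/J. Without the 4 arrays high in these markers, Cry2 in control mice was called (-0.11, limma, adjusted p = 0.0359). Cry1 in control mice lay between -0.07 and 0.003 over 5 alternatives and was not called.

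Mouse by mouse, after subtraction of the group mean, all 10 pairs of members correlated positively over the 55 CR and 53 control arrays that did not stand apart (permutation within groups, 100000 resamples, two-sided, Benjamini-Hochberg over the 10 pairs). Over all 112 arrays 7 of the 10 passed, and Cry1 and Cry2 had r = -0.049, Per1 and Cry1 0.03 and Per3 and Cry1 0.18. Per1 and Cry2 had a Pearson r of 0.59 and a Spearman rho of 0.62 (adjusted p = 3.33e-05 and 5e-05), with r of 0.67 in CR mice, 0.53 in control mice and 0.60 without the 2 mice farthest from the Per1 median. Per2 and Cry2 had r = 0.57 and rho = 0.52 (permutation adjusted p = 3.33e-05 and 5e-05), with 0.56 in CR mice, 0.61 in control mice and 0.54 without the 2 farthest. Both pairs were positive within each of the 7 strains. Per1 and Per2 had r = 0.54 and rho = 0.52 (permutation adjusted p = 5e-05 and 6.67e-05), with 0.67 in CR mice and 0.50 in control mice. Per2 and Per3 had r = 0.51 and rho = 0.41 (permutation adjusted p = 3.33e-05 and 0.000375), but 0.26 in CR mice, against 0.60 in control mice, and 0.41 without the 2 farthest. For Per2 and Cry1 r was 0.38 and rho 0.31 (permutation adjusted p = 0.00185 and 0.0067), with 0.13 in CR mice and 0.50 in control mice. Per3 and Cry2 had r = 0.42 and rho = 0.37 (permutation adjusted p = 0.0002 and 0.00052), with 0.23 in CR mice and 0.54 in control mice. The 4 other pairs had r between 0.22 and 0.28, the weakest being Per3 and Cry1, with r = 0.22 and rho = 0.18 (permutation adjusted p = 0.0458 and 0.0939) and -0.04 in CR mice. The difference between diets in these correlations was not tested.

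The replicate number in the labels, whose meaning is not given in the sources used here, also went with the level of some members. Of the variance of Per1 within groups 34.1% lay between the 8 numbers, against 21.2% for Per2, 15.3% for Cry2, 11.3% for Cry1 and 3.48% for Per3. Some of the variance lies between 8 numbers by chance alone. Neither that share nor the share in all genes is given beside these values, so the smaller ones in particular cannot be read as a link. Per1 was above its group mean in 13 of 14 arrays numbered 3 and in 12 of 14 numbered 4, which averaged 0.13 and 0.14 log2 units above it, and in 2 of 12 numbered 8, which averaged -0.19. Per2 was above its group mean in 2 of 14 arrays numbered 1. With the means of the numbers removed as well and mice permuted within numbers, 9 of the 10 pairs of members still passed, Per3 and Cry1 excepted (r = 0.18, permutation adjusted p = 0.0838), with r = 0.66 for Per2 and Cry2, 0.61 for Per1 and Per2 and 0.59 for Per1 and Cry2. This split by number was made after the values were seen.

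**Figure D3:**
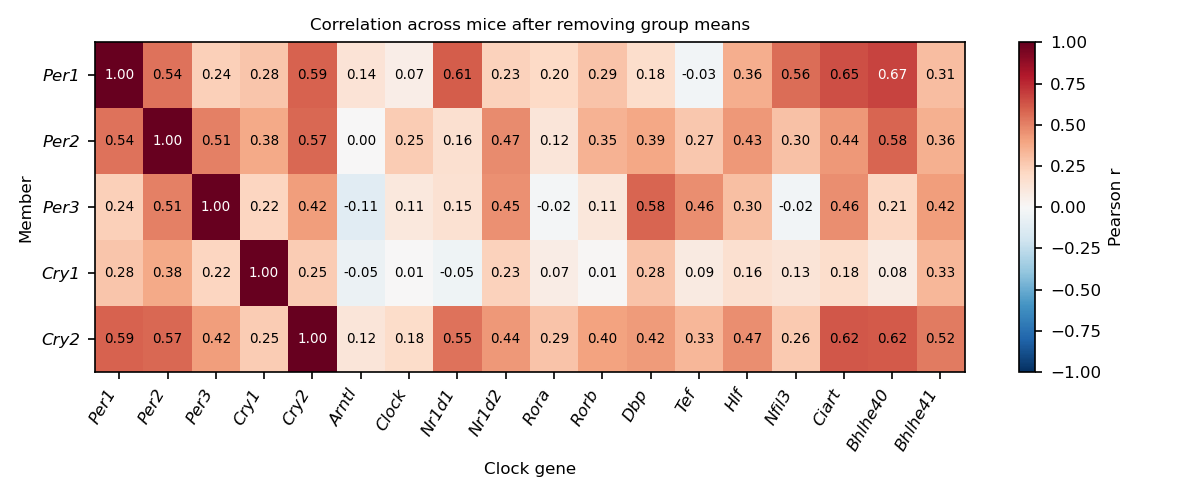
Pearson r across mice, after subtraction of the group mean, between each member (rows) and the members and 13 other clock genes (columns), with colour from -1 (blue) to 1 (red). Per1 and Cry2 reach 0.61 and 0.55 with Nr1d1, whereas Per2, Per3 and Cry1 lie at 0.16, 0.15 and -0.05.

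The clock genes around the members split in this plot. With Nr1d1, which encodes the repressor REV-ERB alpha, Per1 had r = 0.61 and Cry2 0.55, whereas Per2 had 0.16, Per3 0.15 and Cry1 -0.05. With Ciart, a further repressor of the activators, r was 0.65 for Per1, 0.62 for Cry2, 0.46 for Per3, 0.44 for Per2 and 0.18 for Cry1. Dbp, an output factor that binds D-boxes, had its highest r among the members with Per3, at 0.58, and Tef, its relative, likewise, at 0.46, against -0.03 for Per1. Arntl lay between -0.11 and 0.14 with all members. These values are descriptions over mice that share arrays and group means, with no test.

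**Figure D4:**
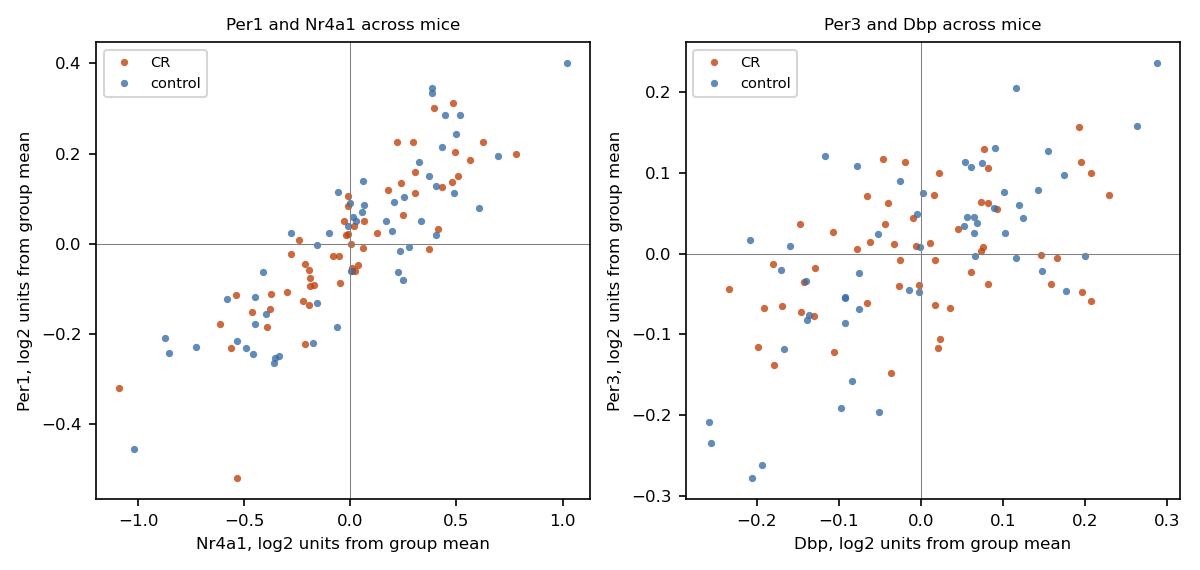
Left, Per1 (y axis) against Nr4a1 (x axis), and right, Per3 (y axis) against Dbp (x axis), in log2 units from the group mean, for 55 CR mice (red) and 53 control mice (blue). Per1 and Nr4a1 follow 1 line (r = 0.86), and Per3 and Dbp show a looser relation (r = 0.58).

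Among all genes, those closest to each member by Pearson r over the same mice differed from member to member. Per1 went with immediate early genes: Nr4a1 (r = 0.86), Arc (0.82), Egr1 (0.79) and Egr2 (0.79), which encode an orphan nuclear receptor, a cytoskeletal protein of synapses and a pair of zinc finger factors, and Dusp1 (0.77), a phosphatase of MAP kinases. With the means of the replicate numbers removed, r with Nr4a1 was 0.82. Its lowest were Spink8 (-0.49), Drd5 (-0.46) and Prpsap2 (-0.44). Per2 had Sik2 (0.61), a salt-inducible kinase, Ssh3 (0.60), Dnajb5 (0.60), Irs2 (0.58), an adaptor of the insulin receptor, and Bhlhe40 (0.58), a repressor at E-boxes. Of these, Irs2 was itself higher in CR mice over the 7 strains, by 0.11 log2 units (limma, adjusted p = 0.00475). The lowest for Per2 were Vstm4 (-0.49), Reck (-0.48) and Slc16a9 (-0.44). For Per3 the closest gene of all was Dbp (0.58), followed by Zzef1 (0.57), Adsl (0.53), Chtf8 (0.52) and Rangrf (0.52), with H2-Bl (-0.50), Adamts13 (-0.49) and Usp17lc (-0.48) at the other end. Cry1 was closest to Tra2b (0.51), a splicing factor, Sde2 (0.49), Zfp111 (0.47), Clk4 (0.44), a kinase of splicing factors, and Zcchc9 (0.44), and lowest with Fchsd1 (-0.44), Mcoln3 (-0.40) and Fam151a (-0.40). For Cry2 they were Acap3 (0.71), Zfp27 (0.68), Hgs (0.68), Itpka (0.67) and Strn4 (0.67), with Tnni3 (-0.51), Olfr641 (-0.50) and Vstm4 (-0.49) lowest. The D-boxes in the windows of Per3 and the first start of Per1, and the cAMP response element core at the second start of Per1, are given beside these likenesses as sequence only.

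Around the members, the other core clock genes held no gene called higher in CR mice. Of 16 listed, 13 were measured, 0 were called higher and 2 lower in CR mice, with a median difference of 0.02. Of all genes, 1.17% were called higher and 1.17% lower. Nr1d1 averaged 10.8 in CR mice and 11.1 in control mice, a difference of -0.27 (limma, adjusted p = 4.16e-11), and was lower in 7 of 7 strains, CBA/J most, by -0.47. Of all genes, 4.31% had the same sign in 7 of 7 strains and 19.7% in at least 6. In CBA/J Per2 and Per3 differed by -0.07 and 0.03, and in C57BL6/J, where they differed by 0.50 and 0.28, Nr1d1 differed by -0.26. Arntl averaged 8.21 in CR mice and 8.30 in control mice (limma, adjusted p = 0.00918), lower in 6 of 7 strains. Dbp (0.07, limma adjusted p = 0.0999) and Hlf (0.06, adjusted p = 0.251) were not called. Dbp, Tef and Ciart, of which Tef and Ciart were singled out after their values were seen, were, with Per2, among the 8 genes called for the interaction of strain and diet (limma, adjusted p = 0.0397, 0.0338 and 0.0338 for the first 3). In C57BL6/J and 129S1/SvImJ, Dbp differed by 0.23 and 0.30, Tef by 0.12 and 0.22 and Ciart by 0.35 and 0.30, and in CBA/J the same genes differed by -0.17, -0.17 and -0.44. The other strains did not all follow Per2. In B6C3F1/J (Per2 0.37) Dbp, Tef and Ciart differed by 0.12, -0.03 and -0.03, and in C3H/HeJ (Per2 0.20) by 0.09, 0.05 and -0.03. In DBA/2J (Per2 0.26) they differed by 0.01, 0.06 and 0.08, and in Balbc/J (Per2 -0.11) by -0.07, -0.04 and -0.19.

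Of 17 genes encoding kinases, ubiquitin ligases and partners of PER and CRY, 15 were measured, and 1 was called higher and 1 lower in CR mice, with a median difference of 0.01. The shares over all genes were 1.17% higher and 1.17% lower. Sfpq, an RNA binding partner of the PER complex, averaged 10.7 in CR mice and 10.6 in control mice (difference 0.09, limma, adjusted p = 0.0151). Usp2, a deubiquitinase known as a clock output, averaged 9.54 in CR mice and 9.64 in control mice (difference -0.10, limma, adjusted p = 0.00150) and was lower in 7 of 7 strains, where 4.31% of all genes kept 1 sign. Btrc, the ligase subunit that marks PER proteins for degradation, and Csnk1d, a kinase that phosphorylates them, differed by 0.05 and 0.04 (limma, adjusted p = 0.0774 and 0.0917). Among 10 glucocorticoid-induced genes, 9 were measured, 2 were called higher and 0 lower, with a median of 0.06, against 1.17% higher and 1.17% lower over all genes. The called genes were Fkbp5, by 0.15 (limma, adjusted p = 0.0164), a cochaperone of the glucocorticoid receptor, and Tsc22d3, by 0.11 (adjusted p = 0.0325), known as GILZ, while Mt2 and Zbtb16 differed by 0.06 and 0.12 without being called. By strain, 9 of these 9 genes were above 0 in C57BL6/J (median 0.15, Per2 0.50), 8 in DBA/2J (median 0.11, Per2 0.26), 6 in CBA/J (median 0.05, Per2 -0.07) and 5 in 129S1/SvImJ (median 0.0058, Per2 0.32). In Balbc/J 4 were (median -0.0075, Per2 -0.11), and 3 in both C3H/HeJ (median -0.06, Per2 0.20) and B6C3F1/J (median -0.13, Per2 0.37). These counts and medians are on all arrays, including those high in cerebellar markers. The share of all genes above 0 in each strain is not given beside them. The part of activity, of glucocorticoid response and of the time of sampling in the differences of the Period and cryptochrome genes was not tested.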

How the data were processed

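Total RNA of the cerebral cortex of 112 mice was labelled and hybridised to Affymetrix arrays, 1 mouse per array. The authors summarised the arrays by RMA in Affymetrix Expression Console (versions not given in the sources used here), and the deposited values are log2 RMA signals of 35556 probe sets. RMA sets all arrays to 1 distribution, so that a shift common to all genes would not show. Whether the strains were normalised in 1 run is not given in the sources used here. With no counts, the number of mice and the signal limit the precision; the median SE was 0.0258 log2 units across strains and 0.0681 within 1 strain.

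Probe sets with 1 gene symbol (21789; 1621 had several and 12146 none) were reduced to the probe set of highest mean signal per gene, giving 19938 genes, none filtered out. limma 3.58.1 in R 4.3.3 fitted 1 mean per group (14 in all), and contrasts of these means were tested two-sided with eBayes, the residual degrees of freedom being 98 and the prior ones 4.62, with Benjamini-Hochberg adjustment over all genes in each contrast; called means an adjusted p under 0.05. Plots and permutations used Python 3.11.15 with numpy 2.4.6 and matplotlib 3.10.9. The fit was tested on simulated data. The labels give each sample as 1 mouse, so that the spread is between mice. Correlations used values centred on group means over the arrays not high in cerebellar markers.

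The members, the gene lists and the rules were chosen with earlier results of these data known. Named were the 5 members, up to 4 genes of each other list (called ones first, then by smallest p across strains), and for each member the 5 genes of highest and the 3 of lowest correlation. Alternatives were quantile normalisation, median centring, a signal filter, robust eBayes, array weights, a replicate block, single probe sets, linear signal, the methods' t-test and plain model, a quality covariate, and leaving out strains, replicate numbers or arrays. Promoter windows came from RefSeq (GRCm38.p6), where 4 of the 5 members matched.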

Additional observations from a re-analysis of the deposited data

Results flagged for a closer look

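For 6 of the 70 groups of 8 mice tested (5 members in 14 groups), the highest or lowest mouse lay apart from the other 7 by more than Dixon's 95% criterion, where chance alone marks about 1 in 20 groups. Per2 was 8.50 in C3H/HeJ control replicate 2, with the other mice of that group between 8.90 and 9.16. Per3 was 8.57 in CBA/J control replicate 8, against 8.81 to 8.95 in the rest. Cry1 was 7.33 in 129S1/SvImJ CR replicate 8, against 7.58 to 7.78, and 7.87 in Balbc/J CR replicate 8, against 7.92 to 7.97. It was 8.26 in C57BL6/J control replicate 6, against 7.64 to 7.86, and 8.44 in B6C3F1/J control replicate 8, against 7.48 to 7.79, and these last mice are the arrays with the strongest cerebellar markers (4.35 and 4.21 log2 units above their groups).

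The CR difference of Per2 varied between strains in the test of the interaction (limma, adjusted p = 0.0131), with positive differences in 5 strains and differences of -0.07 in CBA/J and -0.11 in Balbc/J.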

How the results depend on the processing

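Over 33 alternatives each, the rise of Per2 (0.16 to 0.26 log2 units, apart from linear signal) and of Per3 (0.10 to 0.15) across strains stayed past the threshold, and Per1 stayed uncalled, as did Cry2 over 32. Cry1 kept its direction (0.08 to 0.13) but not its call without strain 129S1/SvImJ (0.10, limma, adjusted p = 0.0590), without strain C3H/HeJ (0.082, adjusted p = 0.108), or without replicate number 1, 5 or 7, where the range over the 8 numbers left out was 0.0807 to 0.131. The number of genes called across strains, 467, became 1193 with array weights, 870 without the arrays over 2 log2 units and 875 without those over 1 log2 unit in cerebellar markers, 585 without C57BL6/J control replicate 6 alone, 204, 306, 175 and 246 without 129S1/SvImJ, Balbc/J, CBA/J and DBA/2J, and 203 to 521 over the replicate numbers left out. The 2 calls of members within strains became 7 with array weights, 4 without the 4 arrays high in cerebellar markers, 4 with the replicate block, and 0 with the methods' t-test adjusted over all genes on linear or log2 values. That t-test called 0 of all genes in every strain but CBA/J. For the other settings the share of all genes called within strains is not given, so these counts are no result about the members. At its own threshold, an unadjusted p under 0.01 on linear values, that test named Per2 and Per3 in 129S1/SvImJ, C57BL6/J and B6C3F1/J, Cry2 in 129S1/SvImJ and CBA/J, Per1 in CBA/J and Cry1 in C3H/HeJ, and in these strains 0.582 to 3.65% of all genes. The Per3 call in C57BL6/J was lost without replicate number 1 (0.25, limma, adjusted p = 0.0685), where Per1 in CBA/J was called (adjusted p = 0.0389). The 1 member called for the interaction became 0 without replicate number 3, 5, 6 or 7 (range 0 to 1). In the hybrid, 2 members were called against the parental mean in control mice without the 4 arrays, in place of 1 (Cry2, -0.11, limma, adjusted p = 0.0359), and in CR mice 1 was called after quantile normalisation and 2 with array weights, in place of 0. With the means of the replicate numbers removed (chosen after seeing the data), 9 of the 10 correlations between members passed, without Per3 and Cry1 (r = 0.18, permutation adjusted p = 0.0838). Over all 112 arrays, 7 passed in place of 10: Cry1 and Cry2 had r = -0.049 in place of 0.25, Per1 and Cry1 0.03 in place of 0.28, and Per3 and Cry1 0.18 in place of 0.22. Among strain differences on CR, Cry2 lost its call after quantile normalisation (limma, adjusted p = 0.152) and Per2 gained one with array weights (adjusted p = 0.0380). The cause of these changes was not tested.

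Replicate numbers went with shared deviations but did not meet the criterion for pairing, a correlation over 0.1 in every pair: of 56 pairs with the same number in a strain, 31 passed it (median 0.11, against -0.01 for different numbers), and 26 of 112 arrays correlated best with their own number. With the replicate block, Per3 in 129S1/SvImJ (limma, adjusted p = 0.0319) and Per1 in CBA/J (adjusted p = 0.0147) were called, and 14 genes in place of 8 had an interaction. Leaving out single arrays was chosen after seeing the data, and the array that moved the calls within C57BL6/J most, its control replicate 2, left Per2 at 0.47 (adjusted p = 0.00369) and Per3 at 0.25 (adjusted p = 0.0135). The DBA/2J control replicate 1, which moved Per2 and Per3 across strains most, left them at 0.20 and 0.12, both called.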
